A study of Homo sapiens with 2 samples.

Results

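Angiogenic factors are secreted proteins that make blood vessels sprout, and myeloma plasma cells release several of them into the bone marrow. The genes described here are 8 in number: VEGFA, VEGFB, VEGFC and PGF of the vascular endothelial growth factor (VEGF) family, HGF and its receptor gene MET, the vasodilator peptide gene ADM, and ANG, which encodes angiogenin. They were chosen by name, each taken from the probe sets that the array annotation assigns to that symbol alone. This gave 7 of the 18377 genes of the arrays, each with 1 probe set. For ANG no such probe set was found in the annotation used here, so ANG was not analysed here.

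The cells are LP-1, an established line grown from a human multiple myeloma. The vector control line had been infected with the empty vector pRUF-IRES-GFP, and the HIF2A line with the same vector carrying the full-length human cDNA of HIF-2α, the protein of the gene EPAS1. Both lines therefore carry the vector and its GFP reporter. The sources used here do not say whether either line is 1 clone, or at what oxygen level the cells grew. Total RNA of each line was hybridised to 1 whole-transcript Affymetrix array, so the data hold 2 arrays, 1 per group, and no difference between them has a replicate error or a test across samples. The question put by the comparison is which transcripts differ when HIF-2α is added.

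HIF-2α is the subunit of a transcription factor that oxygen normally keeps low. Paired with ARNT, it binds short DNA elements with the core ACGTG or GCGTG near its target genes, of which VEGFA and ADM are textbook examples. VEGFA acts on the receptors FLT1 and KDR of endothelial cells, VEGFB and PGF on FLT1, and VEGFC on FLT4 of lymphatic vessels. HGF acts on MET, adrenomedullin on a receptor built from CALCRL with a RAMP protein, and angiogenin enters cells and cuts RNA. Except for MET, the 8 genes encode secreted ligands.

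Promoter sequences are shown for ADM, HGF and VEGFC, the 3 genes that differed most between the arrays. Each run gives the 250 bases before the gene's start on its own strand, 5′ to 3′, from RefSeq on GRCh38.p14, with the HIF core in capitals where it stands on either strand (CACGC is GCGTG read on the other strand). The windows are chr11:10304823-10305072 on the + strand for ADM, chr7:81770048-81770297 on the - strand for HGF and chr4:176792923-176793172 on the - strand for VEGFC.
ADM: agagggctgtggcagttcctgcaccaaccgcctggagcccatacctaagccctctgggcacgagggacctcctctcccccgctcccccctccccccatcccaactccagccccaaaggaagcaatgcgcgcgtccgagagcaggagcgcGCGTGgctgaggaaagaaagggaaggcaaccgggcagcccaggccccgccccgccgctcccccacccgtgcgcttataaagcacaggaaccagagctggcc
HGF: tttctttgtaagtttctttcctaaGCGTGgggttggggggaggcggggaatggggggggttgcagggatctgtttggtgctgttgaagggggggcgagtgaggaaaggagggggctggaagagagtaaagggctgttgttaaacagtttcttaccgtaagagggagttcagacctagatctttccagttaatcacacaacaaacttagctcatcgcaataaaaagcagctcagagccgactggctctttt
VEGFC: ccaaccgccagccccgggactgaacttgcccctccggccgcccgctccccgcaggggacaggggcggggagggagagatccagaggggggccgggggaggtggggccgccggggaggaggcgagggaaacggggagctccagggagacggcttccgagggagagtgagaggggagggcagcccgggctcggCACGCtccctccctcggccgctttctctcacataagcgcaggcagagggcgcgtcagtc

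The 3 windows each hold 1 core, whose first base as printed lies 101 bases before the start in ADM, 226 in HGF and 59 in VEGFC. The gene with the largest positive difference and those with the largest negative ones thus carry the same letters. Of the 8 genes, 7 are in the promoter table with 10 windows, all but VEGFA. In 7 of these 10 windows at least 1 core was found, and every one of the 7 genes has at least 1 such window. PGF and ANG have more than 1 window each, and not all of theirs hold a core. Among all 35116 promoter windows of the same length 43.2% hold ACGTG or GCGTG on either strand, 18.5% ACGTG and 32.2% GCGTG. These shares are per window, and a share per gene was not computed. Nor was a share computed for windows of like content of G and C, which ran from 44.0% to 82.8% in the 10 windows. In the windows of the 7 genes each match was GCGTG. A match is a description of letters and not a site of binding.

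The series-wide figures that bear on these genes are few. EPAS1 had a log2 signal of 3.70 in the vector control and 9.05 in the HIF2A array, the direction the labels call for, while its partner gene ARNT had 7.44 and 7.60 and HIF1A, the gene of the related HIF-1α, 6.92 and 6.99. Background was taken from 359 olfactory receptor genes, whose 95th percentiles were 3.59 in the vector control and 3.58 in the HIF2A array. Genes were counted in comparisons when the brighter array reached 4.01, the median signal of all probe sets, and 11469 did. The differences of these genes, always HIF2A minus vector control, had a robust SD of 0.34 log2 units. The 8 plasma cell markers had signals from 7.58 to 12.59 in the vector control and from 7.53 to 12.55 in the HIF2A array, as the labelled cell type would have. Of these TNFRSF17, the gene of the surface receptor BCMA, had 8.71 and 7.68, a difference of -1.03, and was the 1 gene of all the lists used here that differed 2-fold. Of 27 markers of endothelial, stromal, myeloid, T and NK cells, 15 lay below the background level in both arrays and 7 reached the filter.

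Among the 7 genes with values, 3 were higher in the HIF2A array and 4 lower, and 0 differed 2-fold or more. Of all genes past the filter 1.44% did so, 0.706% being higher and 0.732% lower. At 1.5-fold, ADM was the 1 gene that was higher, against 5.67% of all genes past the filter, and HGF the 1 that was lower, against 4.76%. The median difference of the 7 genes was -0.34, beside 0.00 over all 18377 genes. That median is no common direction, since ADM and VEGFA went the other way, and it came to 0.05 when each gene's neighbours on the chromosome were subtracted. Of the 7, 6 reached the filter. PGF did so only in the HIF2A array, and MET did not reach it.

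**Figure D1:**
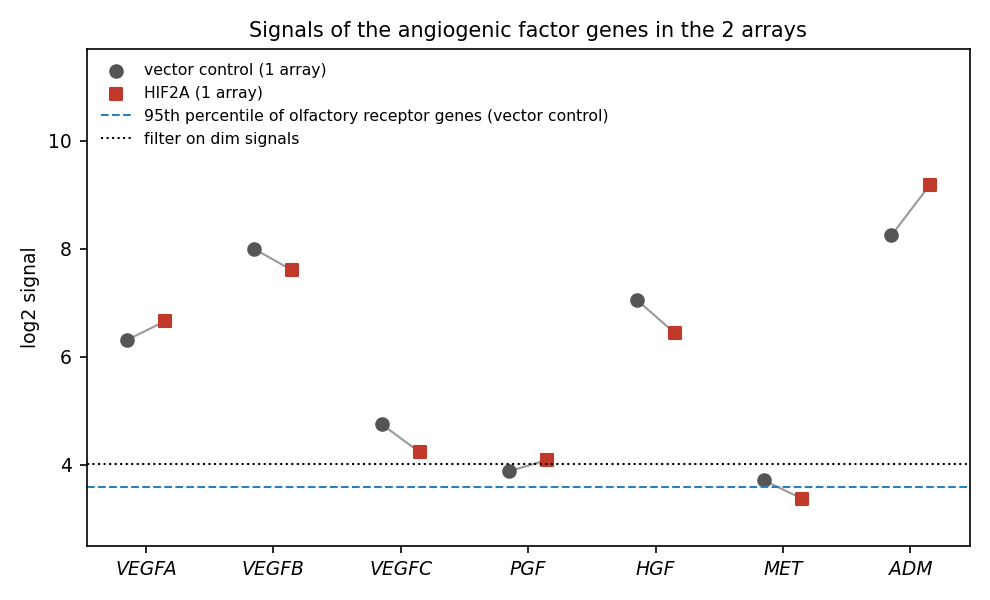
Log2 signals of the 7 genes in the vector control array (grey circles) and the HIF2A array (red squares), joined by a line per gene, with the background level (dashed, 3.59) and the filter on dim signals (dotted, 4.01). ADM and VEGFA are higher in the HIF2A array, VEGFB, VEGFC and HGF are lower, and PGF and MET lie near the background; heights of different genes are not comparable, since each has its own probes.

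ADM encodes adrenomedullin, a peptide that widens vessels and supports endothelial growth. Its log2 signal was 8.25 in the vector control and 9.18 in the HIF2A array. The difference of 0.93 is 1.91-fold, the widest of the 7 genes and just under the 2-fold line. In rank it was the 117th highest of the 11469 genes past the filter. Because dim and bright genes scatter unequally, each difference was also set beside the 1000 genes nearest in mean signal. Around ADM the robust SD of those genes was 0.34, so ADM stood 2.73 such SDs from 0, and 2 of the 1000 were at least as much higher. With 2000 genes that share was 0.8% in place of 0.2%. The RNA came from whole cultures, in which more RNA per cell and more cells with that RNA cannot be told apart.

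VEGFA encodes the main growth factor of blood vessel endothelium. Its signals were 6.31 in the vector control and 6.66 in the HIF2A array, both well above the background level. The difference of 0.35, or 1.27-fold, equals about the robust SD of like-bright genes, 0.33, and 18.7% of them were at least as much higher. VEGFA was thus higher by an amount that many genes of its brightness reached. The probe set covers the transcript as a whole, so splice forms of VEGFA could not be told apart.

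The other VEGF family ligands went both ways. VEGFB, a ligand of FLT1 linked to fatty acid uptake in vessels, had signals of 8.0 in the control and 7.60 with HIF-2α. Its difference was -0.40, and 14.0% of genes of like signal were at least as much lower. VEGFC, the lymphatic vessel growth factor, had 4.75 and 4.23, both above background by 1.16 and 0.65 log2 units. Its difference of -0.52 is 1.43-fold, and 5.3% of like genes were at least as far below 0. PGF, placental growth factor, was dim, with 3.88 in the vector control and 4.09 in the HIF2A array. Its difference of 0.21 was smaller than the robust SD of 0.27 of genes of like signal, and 21.5% of them were at least as much higher. Of the 4 family members with values, VEGFA and PGF were higher and VEGFB and VEGFC lower, and each lay within 1.5-fold.

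HGF encodes hepatocyte growth factor, known as a product of myeloma plasma cells, which signals through the receptor tyrosine kinase MET. The log2 signal of HGF was 7.06 with the empty vector and 6.44 with HIF-2α. It had the largest negative difference of the 7 genes, -0.62 or 1.54-fold lower, which is 1.90 robust SDs of like genes. Among genes that reached the filter it ranked 438th from the lowest, and 4.5% of genes of like signal were at least as far below 0. MET had 3.71 in the vector control, 0.12 above the background level, and 3.37 in the HIF2A array, below it. The difference of MET, -0.34, therefore rests on signals at the edge of detection. With values below the background level set to that level it was -0.13. With 1 array per group neither figure is a bound. For the pair, the ligand was measured well above background in both arrays and the receptor in neither.

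**Figure D2:**
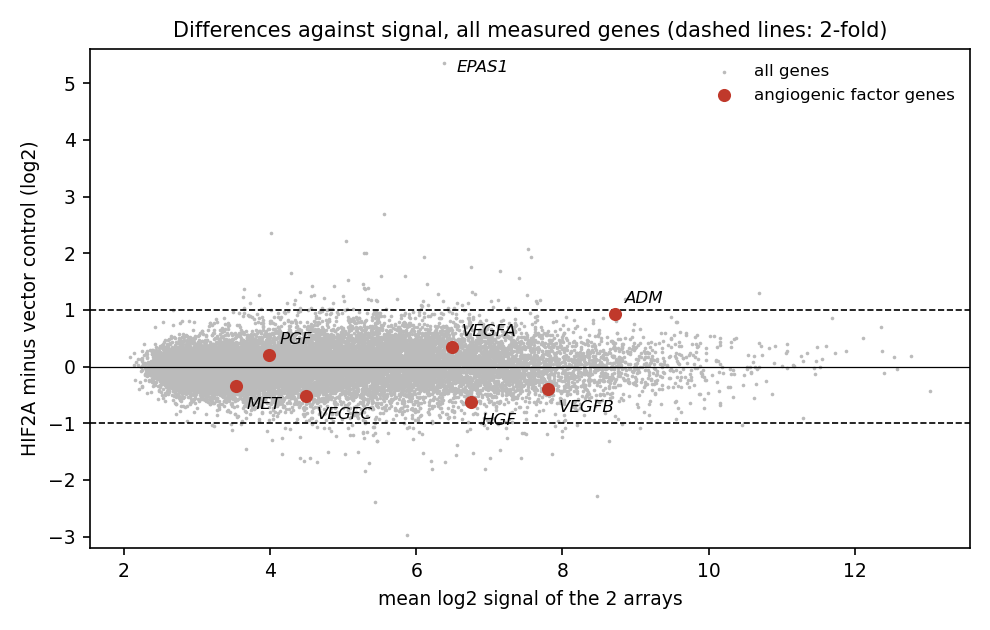
Difference, HIF2A minus vector control in log2 units, against the mean log2 signal of the 2 arrays, for all 18377 genes (grey) and the 7 angiogenic factor genes (red); dashed lines mark 2-fold. ADM, at 0.93, lies at the upper edge of genes of its brightness, HGF at -0.62 and VEGFC at -0.52 towards the lower edge, and the other 4 within the bulk; EPAS1, at 5.35, is marked for scale.

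In these arrays genes next to each other on some chromosomes differ in the same direction, so each gene was set beside the 20 nearest genes past the filter in RefSeq gene order. For VEGFC on chromosome 4, 19 of 20 neighbours were lower and their median was -0.57. Its own difference of -0.52 lay inside their range of -1.47 to 0.12, and relative to them it came to 0.05. The genes next to it, SPCS3 of the signal peptidase and NEIL3 of DNA repair, had -0.86 and -1.47. Of the 20 neighbours 12 were lower than VEGFC itself, so VEGFC did not stand out from its surroundings.

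HGF lies on chromosome 7, where 18 of its 20 neighbours were lower. Their median was -0.29, about as large as what remained of the difference of HGF after subtracting it, -0.33. That likeness depends on the window, since the neighbour median of HGF was -0.18 with 10 genes and -0.21 with 40. Of the 20 neighbours 2, HSPB1 at -0.93 and TMEM60 at -0.79, were lower than HGF. MET, also on chromosome 7, had neighbours with a median of -0.07, of which 14 were lower and 6 higher. The gene before it, CAV1 of the caveolae, had a difference of 0.36, opposite in sign to MET.

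For ADM and VEGFB, both on chromosome 11, the neighbours leaned upwards. Around ADM 15 of 20 were higher, with a median of 0.17, and the difference of ADM relative to them was 0.77. The next gene past the filter, AMPD3, which encodes an AMP deaminase, had 0.94 and was the 1 neighbour above ADM. Around VEGFB 14 of 20 were higher, with a median of 0.20, so VEGFB at -0.40 ran against these neighbours and came to -0.59 relative to them. That lean depends on the window, since the neighbour median of VEGFB was 0.34 with 10 genes and 0.03 with 40. VEGFA on chromosome 6 and PGF on chromosome 14 had neighbour medians of -0.01 and -0.08. Their differences relative to those medians were 0.36 and 0.29. With 10 and 40 genes the neighbour median of VEGFA was 0.17 and 0.04, and that of PGF -0.04 and -0.05.

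**Figure D3:**
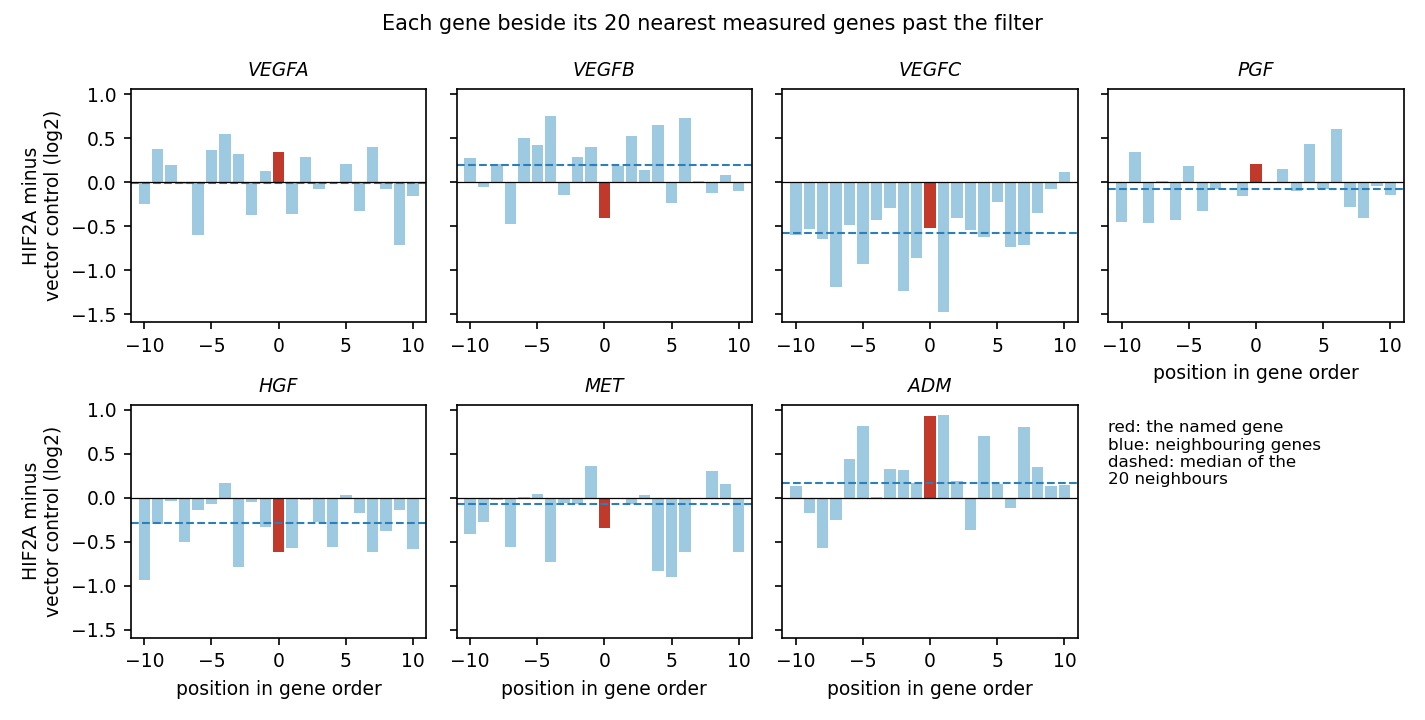
Difference, HIF2A minus vector control in log2 units, of each of the 7 genes (red bar at position 0) and of its 20 nearest genes past the filter (blue bars), by position in gene order, with their median (dashed). Nearly all neighbours of VEGFC and HGF are lower, with medians of -0.57 and -0.29, while VEGFB at -0.40 stands against mostly higher neighbours and ADM at 0.93 above most of its own.

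The receptors and partners of these factors were listed by role, 77 genes in 6 lists. Of these 73 had values and 34 reached the filter. At 2-fold 0 of the 34 differed. At 1.5-fold 4 did, which is 11.8% against 10.4% of all genes past the filter: 3 were higher, 8.82% against 5.67% of all genes, and 1 was lower, 2.94% against 4.76%. Among the 3 higher genes, PLXNB2 reached the filter only in the HIF2A array, where it was higher, so its place in that count depends on its difference. Over the 73, 35 were higher, 36 lower and 2 equal, with a median of 0.00.

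The VEGF receptor genes were dim in both arrays. FLT1 had 3.19 with the empty vector and 3.50 with HIF-2α, and in the same order KDR had 3.27 and 3.18, NRP1 3.07 and 3.22, and NRP2 3.43 and 3.10. All 4 lay below the background level in both arrays, as did the second, dimmer probe set of NRP2, with 3.09 and 3.0. FLT4, the receptor of VEGFC, was above it, with 3.63 and 3.93, and did not reach the filter. The ligand genes VEGFA, VEGFB and VEGFC were thus measured in cells whose receptor genes were at or near background. VEGFD shares its probe set with a neighbouring symbol and was not used.

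Among genes that activate HGF or pass on the signal of MET, 15 had values and 10 reached the filter, with a median of -0.15 over the 15. HGFAC, a protease that cleaves the HGF precursor into its active form, had 4.85 with the empty vector and 4.09 with HIF-2α, which is a difference of -0.76. CBL, the ubiquitin ligase that marks MET for degradation, had 4.83 and 5.61, a difference of 0.78. These were the 2 genes of the list at least 1.5-fold apart, and each lay past 2 robust SDs of genes of like signal, at 2.56 and 2.29. Relative to the median of their 20 neighbours HGFAC came to -0.94 and CBL to 0.52, the latter within 1.5-fold. CD44 and SDC1, surface proteins that hold HGF near MET, had differences of -0.57 and -0.25. Relative to the median of their 20 neighbours they came to -0.64, past 1.5-fold, and -0.21. The adaptor GAB1 has 2 probe sets, the brighter with a difference of -0.40 and the dimmer with -0.02. Of its 20 neighbours on chromosome 4, 18 were lower, with a median of -0.47, and GAB1 came to 0.07 relative to them. The protease inhibitors SPINT1 and SPINT2 had 0.19 and 0.15.

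Of the adrenomedullin receptor, CALCRL was below background in both arrays, at 2.65 and 2.40. The RAMP genes, whose products give the receptor its specificity, were higher by 0.42 for RAMP1, 0.16 for RAMP2 and 0.35 for RAMP3. PAM, the enzyme that amidates the peptide and so makes it active, had 4.39 and 4.74. Of the 20 neighbours of PAM 18 were higher, with a median of 0.42, and PAM came to -0.08 relative to them. On the same measure RAMP1 came to 0.44, RAMP2 to 0.04 and RAMP3 to 0.68. The related peptide genes went both ways, with CALCB at 0.52, from 3.61 in the vector control, and ADM2 at -0.29, the lowest of the list. CALCB reached the filter only in the HIF2A array, at 4.13. All 9 measured genes of this list, of which 6 reached the filter, lay within 1.5-fold. Their median was 0.16, and -0.08 when the median of 20 neighbours was subtracted from each gene, so the list has no settled direction. With the filter at the 75th percentile only RAMP1 was left, at 0.42.

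For angiogenin, whose own gene has no value here, the partners could be read. PLXNB2, a plexin described as its receptor, had 3.71 in the vector control, 0.12 above the background level, and 4.59 in the HIF2A array. The difference of 0.88 is 1.84-fold, and 0.6% of genes of like signal were at least as much higher. PLXNB2 reached the filter only through the HIF2A array. RNH1, the inhibitor that binds angiogenin tightly, had 5.95 and 5.73. Of the other ribonucleases listed, RNASE3 and RNASE4 had no values here. The rest did not reach the filter and ranged from RNASE7 at -0.31 to RNASE2 at 0.57. Both ends of that range lay below background in both arrays.

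Of 22 further pro-angiogenic genes 9 reached the filter, and the median of the 22 was 0.01. CCN2, the matrix-associated growth factor also called CTGF, was the 1 gene at least 1.5-fold apart, with 4.47 in the control, 5.39 with HIF-2α and so a difference of 0.92. Its neighbours had a median of -0.11. The lowest of the list, ANGPT2 at -0.38, was below background in both arrays. EPO, a HIF-2 target of the kidney, had 3.98 and 4.25, and reached the filter only in the HIF2A array. Of 15 inhibitors of angiogenesis 7 reached the filter, and none of these was 1.5-fold apart. They ran from TIMP4 at -0.53 to ADAMTS1 at 0.43, and the median of the 15 was -0.03. Both ends of that range reached the filter only in the array where they were higher. TIMP4 had 4.27 in the vector control and 3.74 in the HIF2A array, and ADAMTS1 3.71 and 4.14. PECAM1, an endothelial marker that plasma cells can also carry, has 2 probe sets. The brighter had 4.36 and 5.28, a difference of 0.92. The dimmer had 2.59 and 3.07, below background in both arrays, a difference of 0.48. Of the 8 endothelial markers, PECAM1 by its brighter probe set, CLDN5, CDH5 and TIE1 lay above background in both arrays, the first 3 past the filter. VWF, TEK, EMCN and ESAM lay below background in both. CLDN5 had 5.16 and 5.02, CDH5 4.01 and 4.11, and TIE1 3.80 and 3.84.

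**Figure D4:**
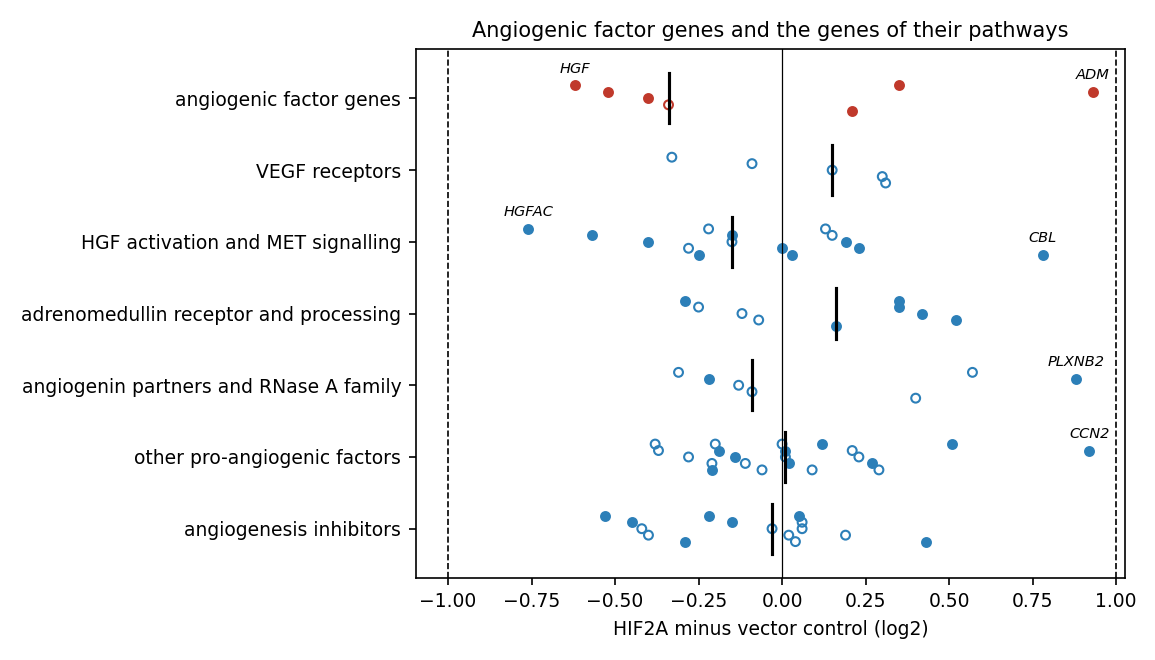
Difference, HIF2A minus vector control in log2 units, of the 7 angiogenic factor genes (red) and the 73 genes of their pathways (blue), by list; filled points reached the filter, open points did not, black bars are medians over all measured genes of a list and dashed lines mark 2-fold. No point passes 2-fold, and the named points are those at least 1.5-fold apart past the filter: ADM, HGF, HGFAC, CBL, PLXNB2 and CCN2.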

How the data were processed

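RNA of 2 LP-1 lines was measured on 1 array each. The authors deposited a log2 signal for each probe set, made with Affymetrix Expression Console according to the submitters' processing notes. The sources used here do not give the algorithm, background correction or scaling. The scale was taken to be log2 because its highest value, 13.97, is above 11.09, the natural log of a full 16-bit reading. Precision is limited by the 2 arrays.

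Of 28869 probe sets, 19310 carry a single symbol and 1752 several. Probe sets with several symbols, or with none (7807), were not used. A gene took its probe set with the highest mean. Gene order came from the RefSeq table of GRCh38.p14 by Entrez number, matching 18348 of 18377 genes. The sources used here do not name the genome build of the annotation.

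No test was possible; counts use folds of 2 and 1.5, and a robust SD is the scaled median absolute deviation. Members and lists were chosen with earlier results of these data known. The 8 genes, EPAS1, HIF1A, ARNT and the receptors are named whatever their values, as are genes at least 1.5-fold apart past the filter and the largest difference each way in each list. SPINT1, SPINT2, CD44, SDC1, GAB1, PAM, RNH1, EPO, PECAM1, CLDN5, CDH5, TIE1, the other markers except TNFRSF17 and the neighbours were named after their values were seen. With 2 arrays no likeness of pattern between genes can be measured. Alternatives were quantile, median and loess centring (span 0.3, 3 passes), 32 added on the linear scale, other filters, probe set rules, neighbours, gene windows and a floor. The code was tested on simulated data. Python 3.11.15, numpy 2.4.6, pandas 2.3.3, statsmodels 0.14.6 and matplotlib 3.10.9 were used.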

Additional observations from a re-analysis of the deposited data

How the results depend on the processing

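With 1 array per group no replicate could be left out. No paired analysis was possible because each group has 1 array. Under the 9 alternatives of scaling, offset, probe set rule, neighbours and floor, the differences ran from 0.77 to 0.95 for ADM, 0.26 to 0.37 for VEGFA, 0.07 to 0.29 for PGF, -0.59 to -0.35 for VEGFB, -0.66 to -0.33 for HGF and -0.34 to -0.09 for MET. Each of these 6 genes kept its sign in all 9, though the 3 probe set rules cannot change genes with 1 probe set. VEGFC ran from -0.52 to 0.05, the latter after subtracting the median of 20 neighbours, which also brought the median of the 7 genes from -0.34 to 0.05. An offset of 32 on the linear scale, which by its construction compresses dim genes, left 18 genes at least 2-fold higher and 24 lower, and at 1.5-fold there were 650 and 546, in place of 81 and 84. At 1.5-fold in place of 2-fold, where the lists had 0, the HGF and MET list had 2 genes, the angiogenin list 1 and the further pro-angiogenic genes 1, and the last also had 1 at 2-fold after subtracting neighbours. The share of like-bright genes as far up as ADM was 0.8% with 2000 genes. Of 278 alternative values 267 stayed within the robust SD, or for counts and shares within 1.5 times. That count is no measure of stability. The robust SD of 0.34 is wider than the difference of PGF and than every pathway list median, so a change of sign can pass. The adrenomedullin list median, from 0.16 to -0.08, counted as within it. Values that a setting cannot change, such as those of genes with 1 probe set under the probe set rules, are counted too. No median of VEGF receptor genes exists with the 75th percentile filter, which none of them passed. Those of the 7 genes that passed the 75th percentile filter had a median of -0.03, and with the floor the 7 had -0.13.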
